A study of Homo sapiens with 16 samples.

Results

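The time course of the X-ray response in A549 cells, a widely used line from a human lung adenocarcinoma, was described here by setting the arrays made 4h after irradiation against those made 1h after it. The comparison used the 8 X-ray arrays, chosen by their labels, out of 16 arrays in all. The groups were X-rays 4h (4 arrays) and X-rays 1h (4 arrays). On each array the RNA of an irradiated plate and of the unirradiated control plate from the same culture were hybridised together with Cy3 and Cy5, so that each value is a log2 ratio of irradiated over control and 4h minus 1h is a difference between 2 such ratios. Photons came from a 6 MV beam of a clinical accelerator at a rate of 3 Gy per minute, and no source used here gives the dose. The labels describe the cultures as independent and state that RNA of 2 experiments was pooled before labelling, and all groups are of 1 cell line. Ratios show no levels, so the identity of the line could not be checked against lung epithelial markers.

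The direction of the deposited ratios was not settled by the labels. Ratios of replicates 1 and 2 of each group were multiplied by -1, which is the likely reading as irradiated over control, chosen earlier with the values of these arrays in view and partly on p53 target genes. With the inverse sign every difference given here turns round at the same size and with the same test. Other readings turn single arrays: against the reading used here, 61 of 98 named genes change sign with the labelled dye, 43 with the C12 dye code and 18 with the ratios as deposited. A difference between replicates 1 and 2 and replicates 3 and 4 that is the same at both times cancels in 4h minus 1h. The arrays agreed poorly within groups: correlations over genes between arrays of 1 group ran from -0.39 to 0.40. Replicate 2 of the 4h group stood apart, with correlations of -0.24, -0.17 and -0.15 with the other 4h arrays and of 0.64 with replicate 1 of the 1h group. Its correlation with the dye profile of the C12 (carbon ion) arrays was 0.61, whereas the X-ray arrays with the same labelled dye had values from -0.52 to -0.13. List medians are also given without this array. So are differences that moved by over 1.5 times or changed sign without it, for the genes described 1 by 1 below. A further reading took out of each array the part that runs along the C12 dye profile. The same step also centred each array on its mean over all genes, and the 2 parts were not separated.

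Ionising radiation breaks DNA and activates the transcription factor p53, which switches on genes for cell cycle arrest, nucleotide excision repair, death receptors and its own inhibitors. Some of these transcripts appear early and decay quickly, and others accumulate for hours. After DNA damage, cells can carry less of the transcripts for cyclins, mitotic kinases and spindle proteins. Many of these genes are controlled through promoter elements called CHR and CCAAT boxes, bound by the DREAM and NF-Y complexes.

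No gene passed the test of 4h minus 1h. In the fit on the 8 arrays with a dye term, 0 of 18334 genes had a limma adjusted p under 0.05 in either direction (0% of genes tested), and the smallest adjusted p was 0.931. At an unadjusted p under 0.05 there were 339 genes (1.85%), of which 166 (0.905%) had higher ratios at 4h and 173 (0.944%) had lower ones. Ratios of all 4h arrays lay above those of all 1h arrays in 127 genes (0.693%) and below them in 48 genes (0.262%). Without replicate 2 of the 4h group, 0 genes passed (smallest adjusted p = 0.241 by limma), and 2029 (11.1%) had an unadjusted p under 0.05, 443 (2.42%) with higher and 1586 (8.65%) with lower ratios at 4h. With the C12 dye profile removed, 0 passed and 738 (4.03%) had an unadjusted p under 0.05. A fit on all 16 arrays, with 1 dye coefficient for each radiation quality, was the only setting tried in which genes passed: PHLDB3 (adjusted p = 0.00847) and INPP5D (0.0169) with higher ratios and SNAI1 (0.00847) with a lower one. It takes its estimate of the spread from the C12 arrays as well. Earlier results of these data showed a smaller spread in those arrays, so these adjusted p can be too small for the X-ray arrays. Of 13795 features without a gene name, 1 (0.00725%) passed among those features, with ratios of 1.62 to 3.38 at 4h and of 0.45 to 0.61 at 1h. The named genes are therefore described by their values. Those with the smallest p were chosen on these same arrays, so their lack of overlap and their permutation p are no separate support.

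**Figure D1:**
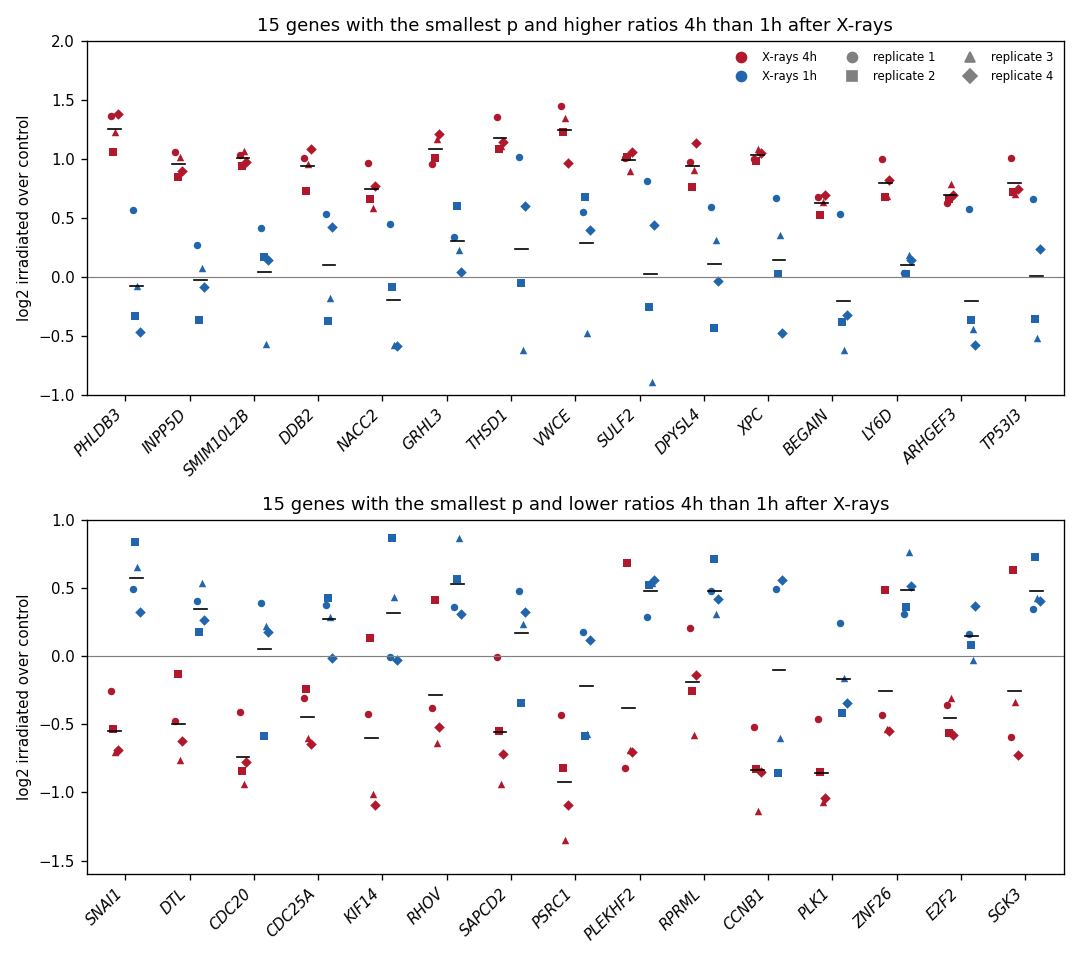
Log2 ratios of irradiated over control on each array for the 15 genes with the smallest limma p in each direction of 4h minus 1h. Red points are the X-ray 4h arrays and blue points the 1h arrays, marker shapes give the replicate, and black lines are group means; the 4h arrays of PHLDB3 sit between 1.06 and 1.38, all above its 1h arrays, and those of SNAI1 between -0.71 and -0.26, all below.

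Among genes with higher ratios at 4h, the largest estimate belonged to PHLDB3, which encodes a protein with a pleckstrin homology domain (Entrez gene 653580, chromosome 19). Its ratios were 1.36, 1.06, 1.22 and 1.38 on the 4h arrays of replicates 1 to 4, against 0.57, -0.33, -0.08 and -0.47 on the 1h arrays. All 4h arrays lay above all 1h arrays, and the difference was 1.33 ± 0.24 (log2, SE, n = 4 arrays per group), a 2.52-fold higher ratio, with an adjusted p of 0.931 by limma and an exact two-sided permutation p of 0.0286, the smallest that 4 against 4 arrays allow. INPP5D, the gene of an inositol phosphatase that acts on products of PI3-kinase (Entrez gene 3635, chromosome 2), had ratios of 1.06, 0.84, 1.02 and 0.89 at 4h, against 0.27, -0.36, 0.07 and -0.09 at 1h. Its groups did not overlap either (0.98 ± 0.21).

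GRHL3, an epithelial transcription factor gene, had 0.96, 1.01, 1.17 and 1.21 at 4h, against 0.34, 0.60, 0.22 and 0.04 at 1h (0.78 ± 0.21). LY6D, which encodes a membrane-anchored surface antigen, had 0.99, 0.67, 0.69 and 0.82 at 4h, against 0.03, 0.02, 0.19 and 0.14 at 1h (0.70 ± 0.20). In both genes every 4h array lay above every 1h array. SULF2, which encodes an enzyme that removes sulfate from heparan sulfate, averaged 0.99 ± 0.07 at 4h and 0.03 ± 0.76 at 1h (SD, n = 4 each), so that nearly all of its spread was in the 1h group. The same held for XPC (SD of 0.05 at 4h and 0.49 at 1h) and SMIM10L2B (0.06 at 4h and 0.42 at 1h, difference 0.97 ± 0.23). VWCE (0.96 ± 0.26), THSD1 (0.94 ± 0.25), the BTB domain repressor gene NACC2 (0.94 ± 0.24), ARHGEF3 (0.89 ± 0.25) and DPYSL4 (0.83 ± 0.23) also had no overlap between the groups, whereas in BEGAIN (0.83 ± 0.23) the groups overlapped at 1 array. Of the 15 genes with the smallest p, all except BEGAIN had no overlap (0.693% of all genes), which follows in large part from their choice by p. PGF, the placental growth factor gene (0.73 ± 0.21), was a further such gene among those with the smallest p without replicate 2 of the 4h group. Leaving that array out moved the difference of PHLDB3 to 1.36, of INPP5D to 0.99 and of LY6D to 0.72.

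The p53 targets comprised genes with a higher ratio at 4h and genes whose ratio at 1h was about as high as at 4h. Of 73 measured members of 5 lists, 14 had an unadjusted limma p under 0.05 with a higher ratio at 4h (0.905% of all genes did) and 0 with a lower one (0.944% of all genes). In 9 members all 4h arrays lay above all 1h arrays (0.693% of all genes), and 0 members had the reverse. After the dye profile was removed this held for 7 members (0.971% of all genes), with INKA2, TIGAR and TP53INP1 no longer among them. The median difference was 0.17 (0.15 without replicate 2 of the 4h group), against 0.01 over all genes, with 45 positive and 28 negative estimates; 52.0% of all genes had a positive one. Since p53 targets entered the earlier choice of sign, their direction is not independent evidence, and 0 of the 73 passed after adjustment.

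Damage recognition genes were the clearest members. DDB2, which encodes a subunit of the complex that finds ultraviolet lesions in chromatin (Entrez gene 1643, chromosome 11), had ratios of 1.00, 0.73, 0.95 and 1.08 at 4h, against 0.53, -0.38, -0.18 and 0.42 at 1h. The difference was 0.84 ± 0.21, and the lowest 4h array exceeded the highest 1h array. XPC, the lesion sensor of global nucleotide excision repair (Entrez gene 7508, chromosome 3), had 1.00, 0.98, 1.08 and 1.05 at 4h, against 0.66, 0.03, 0.36 and -0.47 at 1h, a difference of 0.88 ± 0.25. POLH, the gene of a translesion polymerase, differed by 0.50 ± 0.22, and its 1h replicate 2 (0.56) lay above its 4h replicate 2 (0.45). The repair and nucleotide list as a whole had a median difference of 0.07 over 10 members, and of -0.01 without replicate 2 of the 4h group. With all arrays 6 of the 10 were positive, against 52% of all genes.

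Among 18 death targets, 3 had no overlap between the groups (0.693% of all genes) with higher ratios at 4h: TNFRSF10B, FAS and TP53I3. TNFRSF10B, which encodes a receptor for the death ligand TRAIL, had 0.99, 0.80, 0.79 and 0.98 at 4h, against 0.73, -0.15, -0.28 and 0.28 at 1h (0.74 ± 0.21). FAS, the receptor of FAS ligand, had 0.80, 0.87, 1.12 and 0.71 at 4h, against 0.22, 0.48, 0.04 and 0.55 at 1h (0.55 ± 0.21), and 11 of its 11 features gave a positive difference. TP53I3, the gene of a p53-induced oxidoreductase, had 1.01, 0.72, 0.70 and 0.75 at 4h, against 0.66, -0.36, -0.52 and 0.23 at 1h (0.79 ± 0.22). At 1h DDB2, TNFRSF10B and TP53I3 were above control on replicates 1 and 4 and below it on replicates 2 and 3. This split follows the labelled dye, whose part in it was not tested. The list median was 0.23 (0.25 without replicate 2 of the 4h group), with 13 of 18 estimates positive, against 52.0% of all genes. BBC3, which encodes the BH3-only protein PUMA, was not among them: its mean ratio was 0.81 ± 0.55 at 4h and 0.88 ± 0.20 at 1h (SD, n = 4 each), and only 1 of its 3 features had the sign of the gene's estimate (-0.07 ± 0.22, and 0.11 without replicate 2 of the 4h group).

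ACTA2, the smooth muscle actin gene that lies on chromosome 10 as FAS does, had 1.01, 0.64, 0.74 and 0.77 at 4h, against 0.50, -0.48, 0.19 and 0.50 at 1h (0.61 ± 0.22). It was 1 of 25 measured markers of fibroblasts, endothelium and blood cells, whose median difference was 0.06. No other marker had an unadjusted limma p under 0.05 (0.905% of all genes did with a higher ratio and 0.944% with a lower one). Without replicate 2 of the 4h group the median was 0.14 and 3 members were under that threshold with a higher ratio (2.42% of all genes). The lung epithelial list (23 genes) had a median difference of 0.06 and no member under it. Without that array its median was 0.04, with 1 member higher (2.42% of all genes) and 2 lower (8.65%) at that threshold.

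Metabolic and feedback targets were mixed. ACER2, an alkaline ceramidase gene, had 1.03, 1.52, 1.58 and 1.50 at 4h, against 0.70, 0.98, 0.60 and 0.68 at 1h, a difference of 0.67 ± 0.21. TIGAR, whose product lowers glycolytic flux, had 0.78, 0.81, 1.05 and 1.05 at 4h, against 0.58, 0.02, -0.34 and 0.62 at 1h (0.70 ± 0.23). TP53INP1, a stress-induced nuclear protein gene, had 0.96, 1.26, 1.92 and 2.50 at 4h, against 0.63, 0.92, 0.75 and 0.79 at 1h (0.89 ± 0.29). ACER2 and TP53INP1 were thus above their controls at both times on every array, while TIGAR was near or below control on 2 of the 1h arrays. TRIAP1, a small apoptosis inhibitor gene, differed by 0.68 ± 0.24 with 1 array overlapping. MDM2, the ubiquitin ligase of p53, averaged 0.43 ± 0.29 at 4h and 0.12 ± 0.25 at 1h (SD, n = 4 each), a difference of 0.31 ± 0.22 (SE) with overlapping groups, and of 0.48 without replicate 2 of the 4h group. Over the 11 feedback regulators the median was -0.05, and -0.21 without that array. Over the 17 metabolic and redox targets it was 0.12, and 0.04 without that array.

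A second set of p53 targets had ratios at 1h that were as high as those at 4h. GDF15, a stress-induced cytokine gene, had 2.01, 0.74, 1.28 and 2.93 at 4h, against 2.46, 1.34, 1.27 and 1.97 at 1h; the difference was -0.02 with a 95% interval from -0.57 to 0.53, and 0.15 without replicate 2 of the 4h group. PLK3, a stress-responsive polo-like kinase gene, had 1.41, 1.06, 1.41 and 1.28 at 4h, against 2.28, 1.49, 1.29 and 1.29 at 1h (-0.30, interval from -0.81 to 0.22). GADD45A, a growth arrest gene, had 1.02, 1.13, 1.11 and 1.22 at 4h, against 2.64, 1.30, 1.14 and 1.06 at 1h (-0.42, interval from -1.05 to 0.22). Replicate 1 carried most of the 1h excess of PLK3 and GADD45A, since the other 1h arrays ran from 1.29 to 1.49 in PLK3 and from 1.06 to 1.30 in GADD45A.

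PPM1D, the phosphatase gene that switches p53 signalling off, had 0.95, 0.93, 1.18 and 1.20 at 4h, against 1.73, 1.15, 0.98 and 1.41 at 1h, a difference of -0.25 with an interval from -0.70 to 0.20. SESN2, a sestrin gene of the mTOR pathway, averaged 0.86 ± 0.16 at 4h and 0.85 ± 0.17 at 1h, and SERTAD1, a cell cycle co-regulator gene, averaged 0.99 ± 0.26 at 4h and 0.94 ± 0.12 at 1h (SD, n = 4 each). Their differences of 0.01 in SESN2 and 0.04 in SERTAD1 were 0.11 and 0.15 without replicate 2 of the 4h group. CDKN1A, which encodes the p21 inhibitor of cyclin-dependent kinases, stood between the sets, with 2.09, 1.10, 1.29 and 1.32 at 4h, against 1.19, 0.91, 1.04 and 0.96 at 1h. The 4h arrays of CDKN1A overlapped the 1h arrays only through replicate 2 of the 4h group, and its difference was 0.42 ± 0.23 (interval from -0.06 to 0.91), with 10 of 11 features positive. The arrest and growth list of 17 genes had a median difference of 0.28 (0.29 without that array). INKA2, an inhibitor gene of a PAK kinase (0.64 ± 0.23), was its only member without overlap (0.693% of all genes had higher ratios without overlap). With the dye profile removed the only such member was BTG1 (0.971% of all genes).

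**Figure D2:**
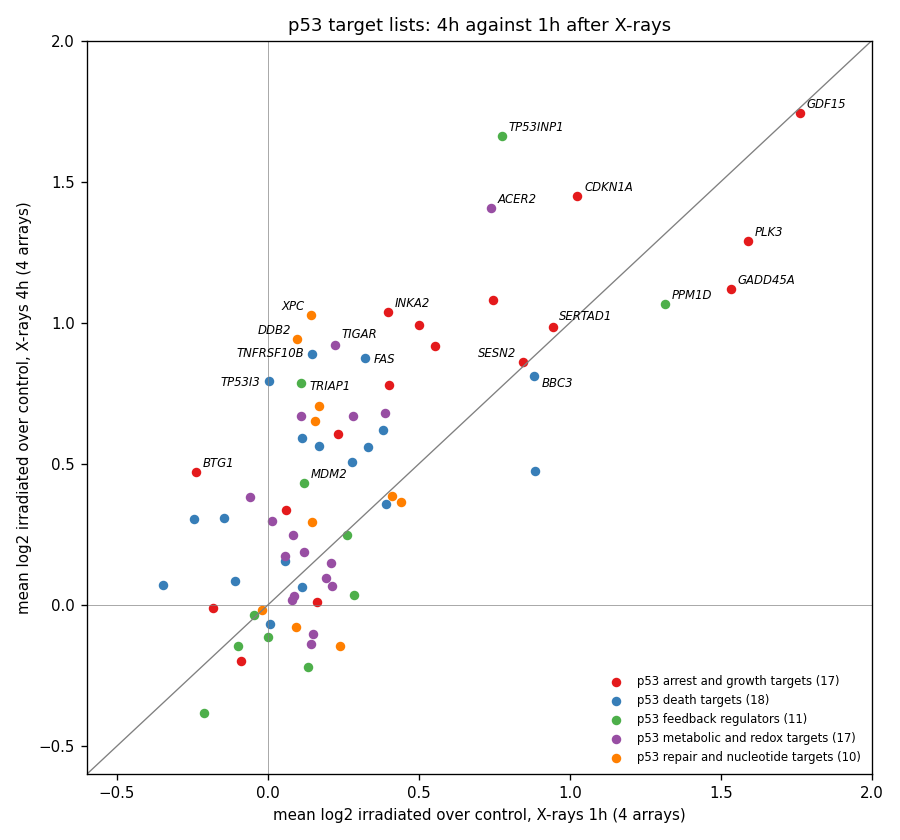
Mean log2 ratio of irradiated over control 4h after X-rays (vertical axis) against that 1h after X-rays (horizontal axis) for 73 p53 targets in 5 lists, 4 arrays per mean. The grey diagonal marks equal ratios; XPC, DDB2 and TNFRSF10B lie near 0 at 1h and near 1 at 4h, and GDF15, SESN2 and SERTAD1 lie close to the diagonal.

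Genes of mitosis mostly had lower ratios at 4h than at 1h. Of 80 measured members of 3 lists, 76 had a negative estimate, against 48.0% of all genes, and the median difference was -0.43, against 0.01 over all genes. An unadjusted limma p under 0.05 with a lower ratio was found in 20 members (0.944% of all genes) and with a higher one in 0 (0.905%); 0 of the 80 passed after adjustment. All 4h arrays lay below all 1h arrays in only 2 members, PLK1 and CCNA2 (0.262% of all genes), and in 10 members after the dye profile was removed (0.633% of all genes). The median without replicate 2 of the 4h group was -0.67, with 77 of 80 negative, against 49.1% of all genes. With the dye profile removed it was -0.41, with 75 of 80 negative, against 48.7% of all genes. In bulk RNA, fewer cells in mitosis and less RNA per cell cannot be told apart.

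Promoters of the 4 members with the smallest p are shown because the mitotic genes moved together and their known control elements lie near the start site. Each runs 5′ to 3′ from 250 bases before to 30 bases after the start of transcription on the gene's strand (RefSeq, GRCh38.p14), with capitals marking the CHR motif TTTGAA and the CCAAT box, on either strand:
CDC20 (chr1:43358731-43359010, strand +): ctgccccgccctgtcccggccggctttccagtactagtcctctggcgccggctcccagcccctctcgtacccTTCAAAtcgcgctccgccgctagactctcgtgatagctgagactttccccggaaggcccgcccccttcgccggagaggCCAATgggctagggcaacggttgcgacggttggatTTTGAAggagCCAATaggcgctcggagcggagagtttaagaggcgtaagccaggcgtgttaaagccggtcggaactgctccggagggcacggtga
KIF14 (chr1:200620722-200621001, strand -): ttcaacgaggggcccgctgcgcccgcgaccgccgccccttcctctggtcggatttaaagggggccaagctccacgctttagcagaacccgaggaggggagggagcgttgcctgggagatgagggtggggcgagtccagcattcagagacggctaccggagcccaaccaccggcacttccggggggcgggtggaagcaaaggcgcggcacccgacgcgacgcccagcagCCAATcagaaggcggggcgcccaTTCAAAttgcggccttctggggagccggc
PSRC1 (chr1:109283116-109283395, strand -): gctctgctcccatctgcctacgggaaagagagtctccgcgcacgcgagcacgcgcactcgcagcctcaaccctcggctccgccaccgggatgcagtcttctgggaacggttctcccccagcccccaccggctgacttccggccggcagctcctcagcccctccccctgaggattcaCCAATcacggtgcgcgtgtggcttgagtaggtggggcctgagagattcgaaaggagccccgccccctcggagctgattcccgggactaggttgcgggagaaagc
CCNB1 (chr5:69166900-69167179, strand +): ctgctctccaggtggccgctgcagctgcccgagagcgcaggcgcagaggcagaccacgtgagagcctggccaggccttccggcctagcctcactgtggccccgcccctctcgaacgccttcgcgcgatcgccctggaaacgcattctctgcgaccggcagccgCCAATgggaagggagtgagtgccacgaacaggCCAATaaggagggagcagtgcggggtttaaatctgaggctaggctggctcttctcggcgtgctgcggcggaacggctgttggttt

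The CDC20 promoter held 2 CHR motifs and 2 CCAAT boxes, that of KIF14 held 1 of each, that of CCNB1 held 2 CCAAT boxes and that of PSRC1 held 1. Both strands were searched, and in these sequences no CHR motif overlapped a CCAAT box. The CHR letters were found in 41 of the 67 mitotic promoters available (61.2%), against 14.7% of all 27305 promoters and 11.2% of the 14411 promoters of measured genes. CCAAT was found in 73.1% of the mitotic promoters, against 34.7% of all promoters. A match is a description of the letters and not a shown site. The shares come from the membership of the lists, and would be the same whatever the differences between the times. Among 61 promoters of p53 targets, 13.1% held the CHR letters and 8.20% a p53 half-site, against 6.08% of all promoters for the half-site; the windows of DDB2 and XPC held none.

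Cyclins and regulators of mitotic entry had a median difference of -0.37, with 21 of 22 estimates negative. Without replicate 2 of the 4h group the median was -0.58, and 12 members, in place of 7, had an unadjusted p under 0.05 with a lower ratio (8.65% of all genes). CCNB1, the cyclin B of the mitotic kinase, had -0.52, -0.83, -1.14 and -0.85 at 4h, against 0.50, -0.86, -0.60 and 0.56 at 1h. Its 4h arrays were all below control, while its 1h arrays split into a pair above and a pair below (-0.73 ± 0.24). The pair above was replicates 1 and 4 and the pair below replicates 2 and 3, a split that follows the labelled dye. The part of the dye in it was not tested. PLK1, the polo-like kinase of mitotic entry (Entrez gene 5347, chromosome 16), had -0.46, -0.85, -1.07 and -1.04 at 4h, against 0.24, -0.42, -0.16 and -0.35 at 1h (-0.69 ± 0.22), and CCNA2, the cyclin A of S phase and G2, had -0.58, -0.65, -1.01 and -0.73 at 4h, against 0.33, -0.57, -0.46 and -0.07 at 1h (-0.55 ± 0.21). The groups of these last genes did not overlap, and 10 of 10 features of CCNA2 were negative. PSRC1, a microtubule-binding protein gene, had -0.43, -0.82, -1.35 and -1.09 at 4h, against 0.18, -0.59, -0.57 and 0.12 at 1h (-0.71 ± 0.23). CKS2, a subunit of cyclin-dependent kinases (-0.85 ± 0.30), and CDC25C, the phosphatase that activates the mitotic kinase (-0.69 ± 0.24), had overlapping groups.

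Mitotic kinases and anaphase regulators had 21 of 21 negative estimates and a median of -0.44. Their median without replicate 2 of the 4h group was -0.67, and 12 members in place of 6 had a lower ratio with an unadjusted p under 0.05 (8.65% of all genes). CDC20, the activator of the anaphase-promoting complex (Entrez gene 991), had -0.41, -0.84, -0.94 and -0.78 at 4h, against 0.39, -0.58, 0.22 and 0.18 at 1h, a difference of -0.79 ± 0.23 with an overlap through 1h replicate 2. AURKA, the kinase of spindle poles, had -0.43, -0.71, -1.10 and -0.72 at 4h, against 0.61, -0.59, 0.15 and -0.24 at 1h (-0.72 ± 0.25). SGO2, which protects centromeric cohesion, had -0.70, 0.24, -0.99 and -1.10 at 4h, against 0.37, 0.23, -0.07 and 0.21 at 1h. In SGO2 the 4h replicate 2 alone was above control, and the difference of -0.82 ± 0.28 became -1.15 without it. SGO2 was among the genes named for a small p without that array, a choice that favours such a change.

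Kinesins, spindle and centromere genes had 34 of 37 negative estimates and a median of -0.44. Without replicate 2 of the 4h group the median was -0.68, and 25 members in place of 7 had a lower ratio with an unadjusted p under 0.05 (8.65% of all genes). KIF14, a kinesin of cytokinesis, had -0.42, 0.14, -1.01 and -1.09 at 4h, against -0.01, 0.87, 0.43 and -0.03 at 1h (-0.92 ± 0.27). KIF11, the motor that pushes spindle poles apart, had -0.70, 0.36, -0.83 and -0.97 at 4h, against 0.62, 0.06, 0.22 and 0.18 at 1h (-0.80 ± 0.28). Replicate 2 of the 4h group was the high 4h array in both, and without it the differences were -1.11 in KIF14 and -1.13 in KIF11. KIF11 was among the genes named for a small p without that array, a choice that favours such a change. SAPCD2, a spindle orientation gene outside the lists, differed by -0.73 ± 0.23.

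The mean of each list was also taken on each array. Mitotic entry genes averaged -0.32, -0.16, -0.80 and -0.63 on the 4h arrays, against 0.18, -0.30, -0.18 and -0.02 on the 1h arrays, so that the groups overlapped. With the dye profile removed they averaged -0.44, -0.43, -0.57 and -0.55 at 4h, against -0.15, -0.20, -0.11 and -0.07 at 1h, without overlap. Kinesins and spindle genes averaged -0.52, 0.16, -0.78 and -0.82 at 4h, against 0.41, -0.11, -0.37 and -0.06 at 1h. With the dye profile removed the groups of this list still overlapped, with -0.65, -0.17, -0.51 and -0.74 at 4h, against 0.02, 0.02, -0.28 and -0.14 at 1h. Ribosomal protein genes, which served as a view of the dye, averaged 0.55, -0.34, -0.75 and 0.43 at 4h, against 0.61, -0.68, -0.82 and 0.78 at 1h, the sign following the labelled dye of the irradiated plate on all 8 arrays. Housekeeping genes averaged 0.25, 0.17, -0.45 and 0.14 at 4h, against 0.48, -0.45, -0.42 and 0.36 at 1h. The median differences of these last lists were 0.04 (36 genes) and 0.10 (27 genes), or -0.08 and -0.11 without replicate 2 of the 4h group, and the part of the dye in the differences between the times was not tested.

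**Figure D3:**
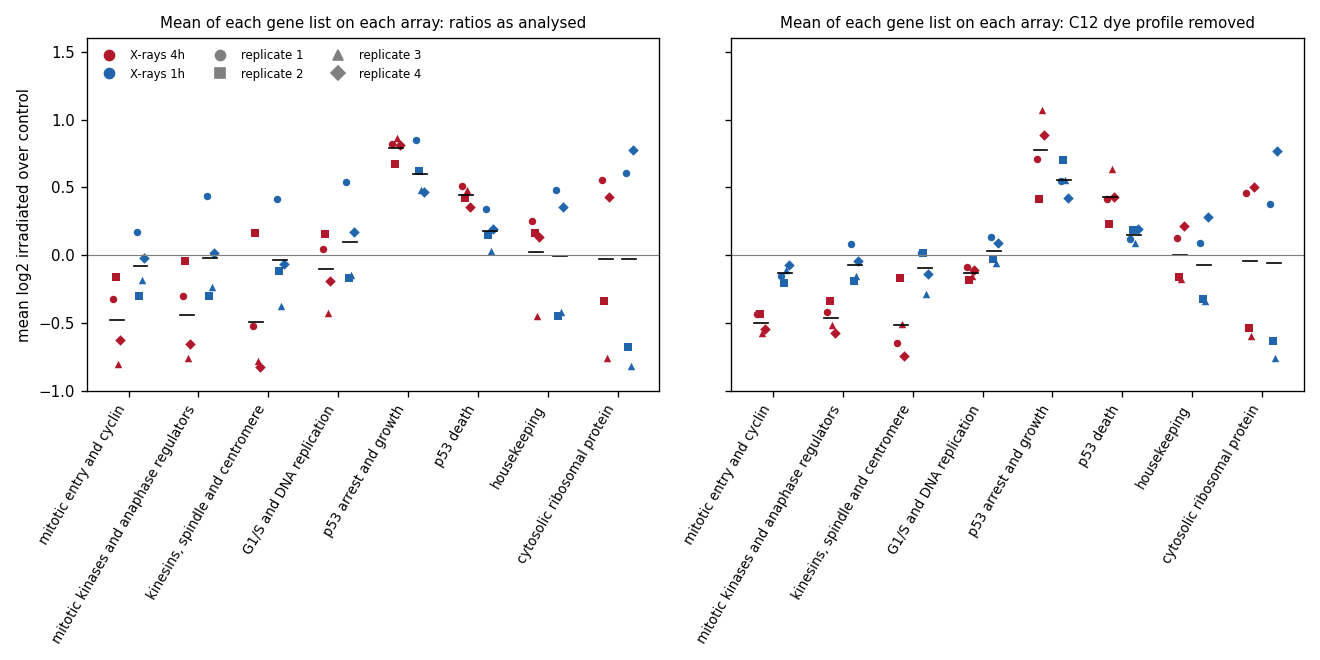
Mean log2 ratio of irradiated over control for 8 gene lists on each X-ray array, as analysed (left) and with the C12 dye profile removed (right). The removal also centred each array on its mean over all genes. Red points are 4h arrays and blue points 1h arrays, marker shapes give the replicate and black lines are group means; on the right the 4h arrays of the mitotic entry genes, from -0.57 to -0.43, all lie below the 1h arrays, from -0.20 to -0.07.

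**Figure D4:**
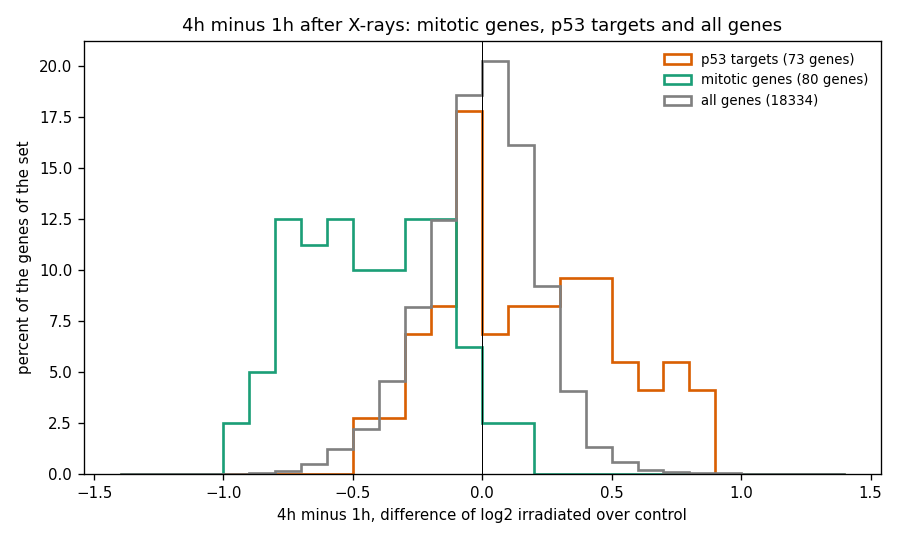
Distribution of the difference 4h minus 1h (log2, horizontal axis) over 73 p53 targets, 80 mitotic genes and all 18334 genes, as percent of each set in bins of equal width. The mitotic genes lie mostly to the left of 0 (76 of 80), with a median of -0.43.

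Genes of the G1/S transition and DNA replication had a median difference of -0.24, with 30 of 41 negative estimates, 5 with an unadjusted p under 0.05 (0.944% of all genes) and 3 without overlap (0.262%). The median without replicate 2 of the 4h group was -0.41, with 36 of 41 negative and 12 under that threshold (8.65% of all genes). DTL, the substrate receptor that targets the licensing factor CDT1 for degradation (Entrez gene 51514, chromosome 1), had -0.47, -0.13, -0.76 and -0.62 at 4h, against 0.41, 0.18, 0.53 and 0.26 at 1h. The arrays of each time thus lay on opposite sides of control, and 10 of 10 features were negative (-0.84 ± 0.21). CDC25A, the phosphatase that activates CDK2, had -0.31, -0.24, -0.60 and -0.65 at 4h, against 0.37, 0.43, 0.29 and -0.02 at 1h (-0.72 ± 0.21). E2F2, a transcription factor of S phase genes, had -0.36, -0.57, -0.31 and -0.58 at 4h, against 0.16, 0.08, -0.03 and 0.37 at 1h (-0.60 ± 0.20). CDC6, a replication licensing gene, was higher on 4h replicate 2 (0.76) than on the other 4h arrays (-0.25, -0.46 and -0.56), and its difference was -0.70 with that array and -1.01 without it. CDC6 was named for its small p without that array, a choice that favours such a change. Histone genes that depend on replication had a median of -0.02 over 53 members, and of 0.13 without that array.

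SNAI1, a repressor of E-cadherin and driver of epithelial-mesenchymal transition, had the largest lower estimate among the genes with the smallest p (Entrez gene 6615, chromosome 20). Its ratios were -0.26, -0.54, -0.71 and -0.69 at 4h, against 0.49, 0.84, 0.65 and 0.33 at 1h. Every 4h array was below control and every 1h array above it, and the difference was -1.12 ± 0.21, a ratio of 0.459 between the times (limma adjusted p = 0.931, exact permutation p = 0.0286). It belongs to a list of 25 TGF-beta and matrix genes, whose median difference was 0.04 (-0.06 without replicate 2 of the 4h group), and in which PLAU, the urokinase gene, had a positive difference (0.52 ± 0.24). RPRML, a gene related to reprimo (-0.67 ± 0.22), also had no overlap, and the kinase gene SGK3 (-0.73 ± 0.25) overlapped through 4h replicate 2, with 0.63 there.

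DUSP6, the phosphatase gene that switches off ERK, had -0.45, 0.84, 0.82 and 0.50 at 4h, against -0.09, -0.48, -0.61 and -0.96 at 1h (0.96 ± 0.28), and ID2, an inhibitor of helix-loop-helix factors, had a difference of -0.60 ± 0.28, and of -0.93 without replicate 2 of the 4h group. In DUSP6 the 4h replicate 1 was below control and the other 4h arrays above it. They were 2 of 47 immediate early genes with an unadjusted p under 0.05 (1 in each direction, against 0.905% of all genes higher and 0.944% lower), and the list median was 0.09. Without replicate 2 of the 4h group the list median was near 0 (-0.0026). At the same threshold 1 member was then higher (2.42% of all genes) and 3 were lower (8.65%). Genes that host small nucleolar RNAs had a median of -0.31 and 13 of 16 negative estimates, with ZFAS1 at -0.54 ± 0.25. Without replicate 2 of the 4h group the median was -0.54, and 6 members in place of 1 had a lower ratio with an unadjusted p under 0.05 (8.65% of all genes). SNHG7, another host gene, was below control at both times, with -0.52, -0.88, -1.01 and -0.49 at 4h, against -0.85, -0.69, -0.74 and -0.89 at 1h (0.07 ± 0.21). Double-strand break repair genes had a median of -0.12 with 27 of 34 negative, and 0 of them had an unadjusted p under 0.05. Without replicate 2 of the 4h group their median was -0.30, and 13 of 34 had a lower ratio with an unadjusted p under 0.05 (8.65% of all genes). Medians of the inflammatory (0.02, 28 genes), interferon (0.03, 25), unfolded protein (0.08, 24), NRF2 (0.01, 19), hypoxia (-0.02, 23), heat shock (0.08, 21) and respiratory chain (-0.07, 28) lists lay within 0.1 of 0 with all arrays. Without that array the same medians were -0.04, 0.05, -0.10, -0.20, -0.13, -0.13 and -0.28, so that those of the NRF2, hypoxia, heat shock and respiratory chain lists lay beyond 0.1 from 0 and those of the inflammatory, unfolded protein, NRF2 and heat shock lists changed sign.

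Some differences were larger once 4h replicate 2 was left out. The genes given here were among those with the smallest p in the fit without that array. Their larger differences, and the distance of replicate 2 from the other 4h arrays, therefore follow in large part from this choice. PLEKHF2, an endosomal protein gene, had -0.82, 0.68, -0.69 and -0.70 at 4h, against 0.29, 0.53, 0.54 and 0.56 at 1h. ASNSD1 had -0.78, 0.90, -0.43 and -0.82 at 4h, against 0.40, 0.74, 0.48 and 0.62 at 1h, and MED7, a subunit of the Mediator complex, had -0.82, 0.76, -0.74 and -0.76 at 4h, against 0.27, 0.40, 0.24 and 0.63 at 1h. In each of these genes 3 of the 4h arrays were close together below control and replicate 2 was above it. The differences were -0.86 in PLEKHF2, -0.84 in ASNSD1 and -0.77 in MED7 with all arrays, and -1.20, -1.20 and -1.16 without replicate 2 of the 4h group. EFR3A, FBXO30, ATP5F1E and RBM12 were also above control on that array (0.86, 0.62, 0.82 and 0.50) and below it on the other 4h arrays, and their differences of -0.73, -0.76, -0.80 and -0.75 were -1.11, -1.15, -1.19 and -1.04 without it. Among genes with higher ratios, GLI3 (0.76 with all arrays and 0.89 without that array), TRPV6 (0.65 and 0.85) and SCN1A (0.64 and 0.96) also had larger differences without it.

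The time difference after X-rays was set against that after C12, which has its own cultures and controls, in 1 fit over the 16 arrays. This fit takes 1 spread per gene from both radiation qualities, and earlier results of these data showed a smaller spread in the C12 arrays. Its SE and p, here and in the next paragraph, can thus be too small for the X-ray arrays. No gene passed this test of the difference (0 of 18334, 0%; smallest limma adjusted p = 1.00), and 340 genes had an unadjusted p under 0.05 (1.85%), so nothing is called particular to X-rays. No source used here gives the dose of either exposure. SNAI1 had mean ratios of -0.02 at 4h and 0.01 at 1h after C12, and its X-ray minus C12 difference was -1.10 ± 0.22 (SE). PHLDB3 averaged 0.48 at 4h and 0.17 at 1h after C12 (1.02 ± 0.25 for X-ray minus C12), and INPP5D averaged 0.20 at 4h and 0.04 at 1h (0.82 ± 0.21).

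The p53 targets that were as high at 1h as at 4h after X-rays had higher mean ratios at 4h than at 1h after C12. PLK3 averaged 0.78 at 4h and -0.03 at 1h after C12, GADD45A 0.92 at 4h and 0.25 at 1h, PPM1D 0.61 at 4h and -0.01 at 1h, and GDF15 1.02 at 4h and 0.07 at 1h. The X-ray minus C12 differences were -1.11 ± 0.34 for PLK3, -1.08 ± 0.37 for GADD45A, -0.87 ± 0.26 for PPM1D, -0.97 ± 0.38 for GDF15 and -0.74 ± 0.22 for BBC3 (SE), and each had an adjusted p of 1.00 by limma. ACER2 and TP53INP1 had similar estimates after both exposures, with X-ray minus C12 differences of 0.10 ± 0.27 and 0.30 ± 0.38. The mitotic entry, kinase and kinesin lists had median time differences of -0.08, -0.05 and -0.17 after C12.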

How the data were processed

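RNA of irradiated and control plates of A549 cultures was compared on 2-colour Agilent arrays, and the values are log2 ratios as the authors deposited them, made with limma (version not given) per the submitters' processing notes. The sources name no background correction, normalization, log base or ratio direction (not given in the sources used here), and base 2 was assumed. The 16 arrays had medians from -0.042 to -0.039 and almost 1 common SD (0.414), so the arrays had been brought to the same distribution. No signals were used here, so dim probes could not be filtered and the number of arrays limits the precision.

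Replicates 1 and 2 of each group were multiplied by -1. Of 45220 features, 31332 had 1 gene symbol, 93 had several (left out) and 13795 were unnamed here and tested apart. Features were averaged per symbol, which gave 18334 genes, of which 7759 had several features. A model with a mean per time and a dye term was fitted with limma 3.58.1 in R 4.3.3 (5 residual and 9.40 prior degrees of freedom), and genes were called at a Benjamini-Hochberg adjusted p under 0.05 over all genes. The scripts were tested on simulated data. Errors are standard errors of that fit unless named SD. Labels call the cultures independent; p-values measure the spread between these pooled samples. The C12 comparison was 1 interaction contrast over 16 arrays with a dye coefficient per quality. Exact permutation tests were two-sided.

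The named genes are the 15 genes with the smallest p in each direction, the 10 in each direction without replicate 2 of the 4h group, of each list up to 6 members that passed, else the 2 with the smallest p, and genes that earlier results of these data had named. Not all of them are described in the text. The comparison, the 25 lists (643 of 696 genes measured) and the sign rule were chosen with earlier results of these data known. Alternatives left out each array, changed dye terms, centring, weights, feature averaging and direction, and removed the C12 dye profile, the last chosen after seeing the data. That removal was a regression with an intercept, so it also centred each array.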

Additional observations from a re-analysis of the deposited data

Results flagged for a closer look

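In groups of 4 arrays, 1 array stood far from the other 3 in 14 of 246 cases tested (5.69%). Chance gives about 1 in 20 where genes are not chosen by their values. Many of the cases were genes chosen by p on these arrays, some of them without replicate 2 of the 4h group. The 2 rates can therefore not be compared. Replicate 2 of the 4h group was that array for PLEKHF2 (0.68), ZNF26 (0.49), MED7 (0.76), FBXO30 (0.62) and RBM12 (0.50), in each of which it lay above the others, and for SESN2 (0.62), in which it lay below them. Replicate 1 of the 4h group stood high in TP53I3 (1.01) and low in ACER2 (1.03). Replicate 3 of the 4h group stood high in H2BC18 (0.54), and low in the mean of the NRF2 target genes (-0.51) and of the housekeeping genes (-0.45). In the 1h group, replicate 1 stood high in GADD45A (2.64) and low in PLEKHF2 (0.29), and replicate 3 stood low in INKA2 (-0.18). The causes were not tested.

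Among the 13795 features without a gene name, 1 (0.00725%) passed the test of 4h minus 1h, adjusted over these features. Its ratios were 3.38, 1.93, 1.62 and 2.68 at 4h, against 0.54, 0.61, 0.45 and 0.50 at 1h. The difference was 1.87 ± 0.27 (log2, SE, limma adjusted p = 0.00515, exact permutation p = 0.0286), with no overlap between the groups. It did not pass when adjusted over the 45127 named and unnamed features (limma adjusted p = 0.226) or without replicate 2 of the 4h group (0.242). After C12 the same feature averaged 0.77 at 4h and 0.07 at 1h.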

How the results depend on the processing

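The count of genes that passed in 4h minus 1h was 0 in the main setting and in each alternative, except for all 16 arrays with 1 dye coefficient for each quality, where 3 passed: PHLDB3 (1.33, limma adjusted p = 0.00847), INPP5D (0.98, 0.0169) and SNAI1 (-1.12, 0.00847). That fit shares the spread of the C12 arrays, which was smaller in earlier results of these data. On leaving out each array in turn, 0 genes passed each time, and genes with an unadjusted p under 0.05 numbered from 126 to 2029, against 339 in the main setting; the highest count came without replicate 2 of the 4h group. That count was 2266 with array weights, 738 with the dye profile removed and 1489 with it removed and without replicate 2 of the 4h group, 1793 with the C12 dye code, 645 with all 16 arrays and 1 dye coefficient, and 128 among genes with 2 or more features. Same-numbered arrays had deviations from their group means that correlated at 0.05, -0.11, 0.41 and 0.36, and 3 of 8 arrays correlated best with their own number, so the numbers were not taken as pairs; with a fixed replicate block 0 genes passed (509 unadjusted) and with a random one 0 (289). The X-ray minus C12 contrast passed 0 genes in each alternative (unadjusted from 42 to 2282), 0 with the replicate block within each quality included (496).

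Of 98 named genes, 92 kept their sign under each setting they were computed in (genes with 1 feature have none for genes with 2 or more features), the direction readings apart, and 6 did not. Over the left-out arrays GDF15 ran from -0.26 to 0.15, BBC3 from -0.15 to 0.11, SERTAD1 from -0.042 to 0.15, SESN2 from -0.043 to 0.11 and RPS24 from -1.13 to 0.036. GDF15 was 0.15 with array weights and 0.19 with the dye profile removed and without replicate 2 of the 4h group. BBC3 was 0.066, 0.014 and 0.28 with array weights, with the median over features and with that same removal. SERTAD1 was -0.068, SESN2 -0.095 and SNHG7 -0.040 with arrays centred on housekeeping genes. The causes were not tested. As deposited, 80 of 98 genes kept their sign, 37 with the labelled dye and 55 with the C12 dye code, with 0 passing in each.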
